A study of Mus musculus with 6 samples.

Results

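The ISG15 conjugation pathway was followed through 6 transcripts, Isg15, Uba7, Ube2l6, Herc6, Trim25 and Usp18, each found by name as 1 row among the 24972 gene rows of the deposited table. RNA came from cardiomyocytes of MX1gfp mice, a reporter strain with green fluorescent protein placed at Mx1, and all 6 animals carried that genotype. The vehicle group was 3 mice given 100 microlitres of phosphate-buffered saline by intraperitoneal injection. The doxorubicin group was 3 mice given the anthracycline doxorubicin once, at 25 mg per kg, in the same volume. Hearts were taken after 48 hours, the ventricles were digested with collagenase and the myocytes settled by gravity, which is no sort. Neither age nor sex is stated for either group.

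ISG15 is a small protein related to ubiquitin whose gene is switched on by interferon. It is attached to other proteins by a relay of enzymes: an activating enzyme, Uba7, passes it to a conjugating enzyme, Ube2l6, and a ligase such as Herc6 or Trim25 directs it to a target. Usp18 takes it off again and also binds the interferon receptor, where it damps signalling. Every enzyme of the relay is itself interferon-inducible, so the transcripts are often seen together in tissues exposed to interferon. Only their RNA was measured here, not the free or conjugated protein.

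After doxorubicin all 6 transcripts had a higher mean than after vehicle, as had 49.6% of all 12477 genes tested, and 5 of them (Isg15, Ube2l6, Herc6, Trim25 and Usp18) had every doxorubicin value above every vehicle value. Their mean differences lay between 1.07 and 1.37 on the log2(value + 1) scale, that is 2.10-fold to 2.58-fold. Uba7 was the exception, with a difference of 0.44 and groups that overlapped. Of all genes tested, 19.2% had doxorubicin values that all lay above the vehicle values. No member (0 of 6) passed an adjusted p of 0.05 in limma, against 0% of all genes in the higher direction, and 5 of 6 had an unadjusted p under 0.05, against 16.7% of all genes.

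The libraries set how firmly these values can be read. Depth, estimated from the spacing of low values, was about 7710000 to 11400000 reads after vehicle and 3670000 to 6170000 after doxorubicin, so every doxorubicin library was shallower. Vehicle replicate 3 and doxorubicin replicates 1 and 3 contained Xist (1558 to 2093 normalized counts), and the others contained the Y-linked Ddx3y (659 to 958). This split crosses the treatment unevenly. Differences within a class rest on doxorubicin replicate 2 alone with Ddx3y and on vehicle replicate 3 alone with Xist. Mx1, the reporter locus, stood at 2.48, 0.971 and 5.34 in the vehicle mice. After doxorubicin it was 1.06, 2.43 and 95.4 (replicates 1 to 3). How the altered locus affects the Mx1 row is not known.

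Promoter sequence is shown because the members are held to share interferon control and because their promoters could be compared directly. RefSeq promoters of GRCm38.p6 were matched for 5 of the 6 members (not Usp18), and the 150 bases before each annotated start are printed 5′ to 3′ on the gene's strand. Capitals mark matches to GAAANNGAAA, a pattern of the interferon-stimulated response element, or to its shorter core AANNGAAA, on either strand.
Isg15, chr4:156200819-156200968, minus strand: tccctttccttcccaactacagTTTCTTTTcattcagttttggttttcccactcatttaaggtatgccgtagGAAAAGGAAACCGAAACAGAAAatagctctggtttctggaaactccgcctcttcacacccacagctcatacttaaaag
Uba7, chr9:107975417-107975566, plus strand: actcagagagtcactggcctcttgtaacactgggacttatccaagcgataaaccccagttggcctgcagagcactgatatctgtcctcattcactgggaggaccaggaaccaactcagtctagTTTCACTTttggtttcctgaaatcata
Ube2l6, chr2:84798678-84798827, plus strand: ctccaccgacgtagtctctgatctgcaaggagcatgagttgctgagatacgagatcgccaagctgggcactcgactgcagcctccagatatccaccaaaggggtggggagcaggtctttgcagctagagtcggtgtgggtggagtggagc
Herc6, chr6:57580842-57580991, plus strand: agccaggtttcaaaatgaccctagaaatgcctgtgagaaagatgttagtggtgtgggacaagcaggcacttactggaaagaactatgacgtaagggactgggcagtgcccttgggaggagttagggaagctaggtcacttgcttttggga
Trim25, chr11:88999253-88999402, plus strand: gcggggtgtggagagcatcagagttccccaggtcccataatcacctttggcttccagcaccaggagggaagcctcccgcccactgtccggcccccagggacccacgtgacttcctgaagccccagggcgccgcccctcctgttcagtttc

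Of these promoters, searched over the 250 bases before the start, Isg15 held GAAANNGAAA. It held 3 overlapping matches on its own strand, beginning 78, 72 and 66 bases before the start. At least 1 match was present in 2.98% of the 32851 promoters in the RefSeq table and 3 or more in 0.0122%. The core AANNGAAA, which lies inside the longer pattern, had 4 matches in Isg15 and 1 in Uba7, on the opposite strand 27 bases before the start, and was present in 21.3% of all promoters. Neither pattern was found in this window of Ube2l6, Herc6 or Trim25, and TTCNNNGAA, the pattern bound by activated STAT dimers, was found in none of the 5 (7.02% of all promoters). A match here is a run of letters and not a measured binding site.

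Isg15 (chromosome 4, 156199424 to 156200818, GRCm38) encodes the modifier itself. In vehicle replicates 1 to 3 it measured 40.4, 47.7 and 40.0 normalized counts, and doxorubicin replicates 1 to 3 gave 93.7, 55.1 and 264. The groups did not overlap, but doxorubicin replicate 2 lay close to the vehicle libraries while replicate 3 lay far above them. That closeness is within counting error: the 46 reads estimated for Isg15 in doxorubicin replicate 2 give a 95% exact Poisson interval of 40.7 to 74.1 normalized counts, which includes the highest vehicle value. The group means were 42.7 ± 4.34 and 138 ± 111 (SD, n = 3 each). The log2 fold change was 1.37 (95% interval 0.18 to 2.55, limma adjusted p 0.107). Here and for the other members it is the difference of mean log2(value + 1), not the log2 ratio of the group means. The difference was 0.32 among libraries with Ddx3y, which hold doxorubicin replicate 2, and 1.95 among those with Xist. Without doxorubicin replicate 3 it was 0.74.

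Usp18 (chromosome 6, 121245906 to 121270917), the deconjugase, was close to Isg15 in the size of its difference and in its spread. It stood at 36.4, 35.5 and 42.0 in the vehicle libraries and at 59.9, 57.6 and 210 in the doxorubicin libraries. Doxorubicin replicates 1 and 2 were nearly equal, both above the vehicle range, and replicate 3 was the highest. The 95% exact Poisson intervals of doxorubicin replicates 1 (45.5 to 77.8) and 2 (42.7 to 76.9) lie above the vehicle values. Both overlap the interval of vehicle replicate 3 (31.0 to 55.7). The means were 37.9 ± 3.52 and 109 ± 87.4. The log2 fold change was 1.23 (95% interval 0.12 to 2.34, limma adjusted p 0.115), and 0.62 without doxorubicin replicate 3. It was 0.67 among libraries with Ddx3y and 1.40 among those with Xist. The ratio of Usp18 to Isg15, which no scaling between libraries can alter, was 0.901, 0.744 and 1.05 in the vehicle libraries and 0.640, 1.05 and 0.795 in the doxorubicin libraries. The ratio after doxorubicin lay partly within the vehicle range.

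**Figure D1:**
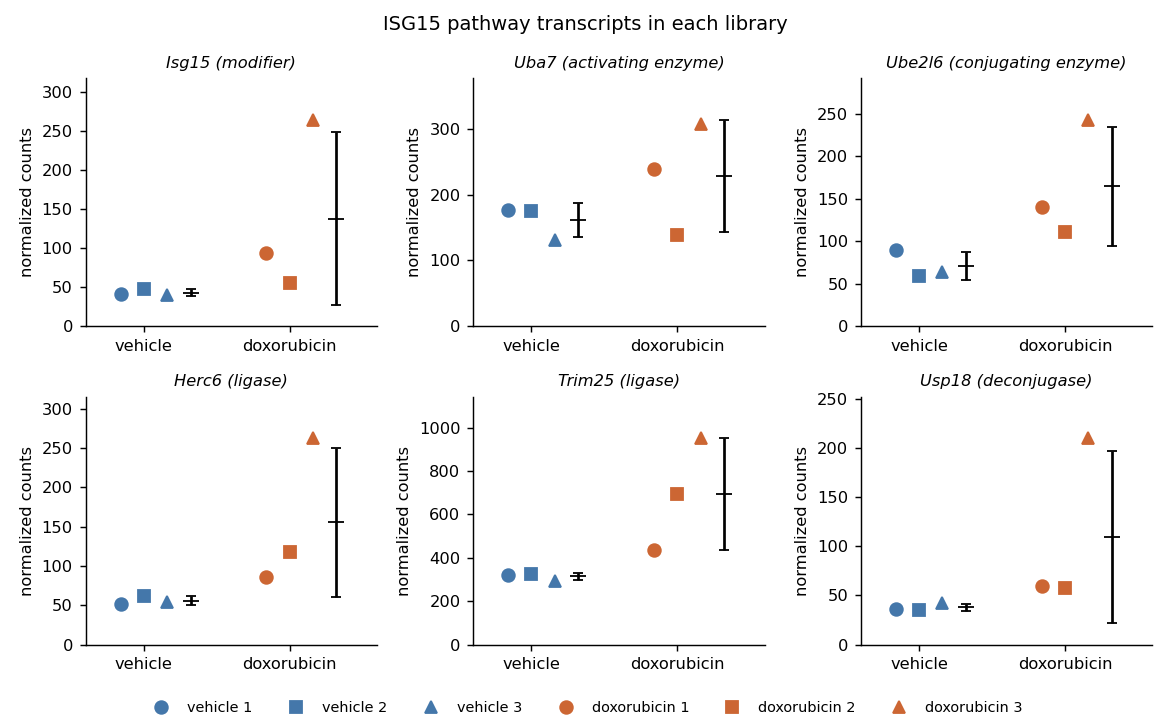
Normalized counts of each of the 6 members (vertical axes, from 0) in 3 vehicle and 3 doxorubicin libraries, with a separate marker for each replicate and a black bar for the group mean and SD. Doxorubicin replicate 3 is the highest library in every panel, and Uba7 is the panel where doxorubicin replicate 2 lies among the vehicle values.

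Uba7 (chromosome 9, 107975567 to 107984056), the activating enzyme at the head of the relay, differed least. Its values were 176, 175 and 131 in the vehicle libraries and 239, 138 and 308 in the doxorubicin libraries. Doxorubicin replicates 1 and 3 were above all vehicle libraries, whereas replicate 2 lay within the vehicle range. The means were 161 ± 25.8 and 228 ± 85.6, and the log2 fold change of 0.44 (95% interval -0.25 to 1.13, limma adjusted p 0.308) was within the spread between replicates. Among the libraries with Ddx3y, doxorubicin replicate 2 was below both vehicle libraries (-0.35), and among those with Xist the difference was 1.05. Without doxorubicin replicate 2 the difference was 0.77 and without replicate 3 it was 0.19.

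The ratio of Uba7 to Isg15 was below the vehicle range in every doxorubicin library. It was 4.37, 3.66 and 3.28 after vehicle and 2.55, 2.50 and 1.17 after doxorubicin, each by replicate 1 to 3. Of the 5 ratios formed with Isg15, this one alone had groups that did not overlap. The ratio of Ube2l6 to Uba7 did not overlap either, at 0.507, 0.340 and 0.482 after vehicle and 0.585, 0.800 and 0.788 after doxorubicin, while that of Herc6 to Uba7 did. The smallest two-sided p that exact permutation of 3 against 3 libraries allows is 0.1, and the ratios are therefore given as description.

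Ube2l6 (chromosome 2, 84798828 to 84810003) encodes the conjugating enzyme that receives ISG15 from Uba7. Vehicle values were 89.5, 59.4 and 63.1, and doxorubicin values were 140, 110 and 243. All doxorubicin libraries lay above the vehicle libraries, although vehicle replicate 1 came near the lowest of them, doxorubicin replicate 2. The 91 reads estimated for Ube2l6 in that doxorubicin library give a 95% exact Poisson interval of 88.5 to 135 normalized counts, which includes vehicle replicate 1. The means were 70.7 ± 16.4 and 164 ± 69.6, and the log2 fold change was 1.15 (95% interval 0.42 to 1.88, limma adjusted p 0.0859). The difference was 0.59 among libraries with Ddx3y and 1.53 among those with Xist, and 0.83 without doxorubicin replicate 3.

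Herc6 (chromosome 6, 57580992 to 57665136) encodes the main ISG15 ligase of the mouse. It measured 52.0, 61.9 and 53.7 in the vehicle libraries and 85.7, 117 and 262 in the doxorubicin libraries. Vehicle values were tight and every doxorubicin value lay above them. The means were 55.9 ± 5.26 and 155 ± 94.2, and the log2 fold change was 1.30 (95% interval 0.41 to 2.19, limma adjusted p 0.0859). It was 1.04 among libraries with Ddx3y, 1.47 among those with Xist and 0.84 without doxorubicin replicate 3.

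Trim25 (chromosome 11, 88999403 to 89020294) encodes a ligase for both ubiquitin and ISG15, best known for acting on the RNA sensor RIG-I. It was measured with the most reads of the 6, at 323, 326 and 295 normalized counts after vehicle and 436, 694 and 952 after doxorubicin. The groups were well apart, and replicate 1 was the lowest of the doxorubicin libraries. The means were 314 ± 16.8 and 694 ± 258, and the log2 fold change was 1.07 (95% interval 0.44 to 1.70, limma adjusted p 0.0859). Its unadjusted p of 0.0046 was the smallest among the members and ranked 538 of all genes tested. The differences within library classes were nearly equal, 1.10 with Ddx3y and 1.12 with Xist.

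The doxorubicin libraries did not share a common order of members. Measured from the vehicle mean on the log2 scale, the median of the 6 members was 0.63 in both doxorubicin replicates 1 and 2, and replicate 3 had 2.00. Isg15 led in replicates 1 and 3, at 1.12 and 2.61, but only Uba7 was below it in replicate 2, where it was at 0.37. Trim25 and Herc6 led in replicate 2, at 1.14 and 1.06, while in replicate 1 they stood at 0.47 and 0.61. Replicates 1 and 2 therefore had the same median and different leading members. These were Isg15 and then the conjugating enzyme Ube2l6 (0.998) in replicate 1, and the ligases Trim25 and then Herc6 in replicate 2. No test compares single libraries, and the difference between them is given as values.

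**Figure D2:**
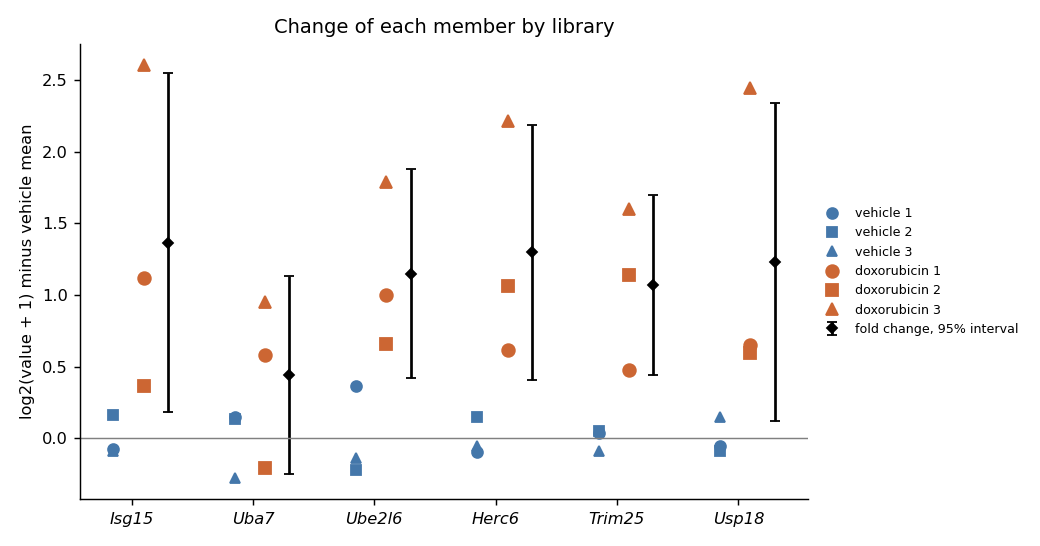
Log2(value + 1) of each member minus its vehicle mean, for every vehicle (blue) and doxorubicin (orange) library, with the fold change and its 95% interval from limma in black. The interval includes 0 for Uba7 and lies above 0 for the other members before any adjustment for the number of genes tested.

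The number of genes called depended on doxorubicin replicate 1, without which limma called 2409 genes higher. Of the 6 members, 4 then passed limma's adjusted p of 0.05, against 19.3% of all genes in the higher direction. These were Trim25 (1.37, adjusted p 0.00082), Herc6 (1.64, 0.0053), Ube2l6 (1.22, 0.022) and Usp18 (1.52, 0.033). Isg15 (1.49, adjusted p 0.061) and Uba7 (0.37, 0.382) did not pass. With all libraries weighted by limma, 4 members passed, against 15.7% of all genes in the higher direction. Leaving out doxorubicin replicate 3 instead reduced the median of the members from 1.19 to 0.78. None of the 6 passed in that fit, in which 0 of all genes were called higher and 0 lower.

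Levels between genes were compared per length, as normalized counts per kilobase of the GENCODE transcript matched to each member's RefSeq accession (756 bases for Isg15 to 5590 for Trim25). In the vehicle libraries Isg15 (56.4 ± 5.74), Trim25 (56.2 ± 3.01), Uba7 (50.3 ± 8.06) and Ube2l6 (45.3 ± 10.5) were neighbours whose levels did not differ beyond their spread. Usp18 (21.4 ± 1.99) and Herc6 (11.7 ± 1.10) were lower than these 4 and apart from each other in every vehicle library. After doxorubicin Isg15 had the highest mean level, 182 ± 147 per kilobase, but its libraries ranged from 72.9 to 350, so that it overlapped Trim25 (124 ± 46.1), Ube2l6 (105 ± 44.6) and Uba7 (71.4 ± 26.8). Herc6 was the lowest of the 6 in every library of both groups. In doxorubicin replicate 3 the level of Usp18 per kilobase, 119, was above that of Uba7, 96.4, the reverse of the order in the other 5 libraries.

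**Figure D3:**
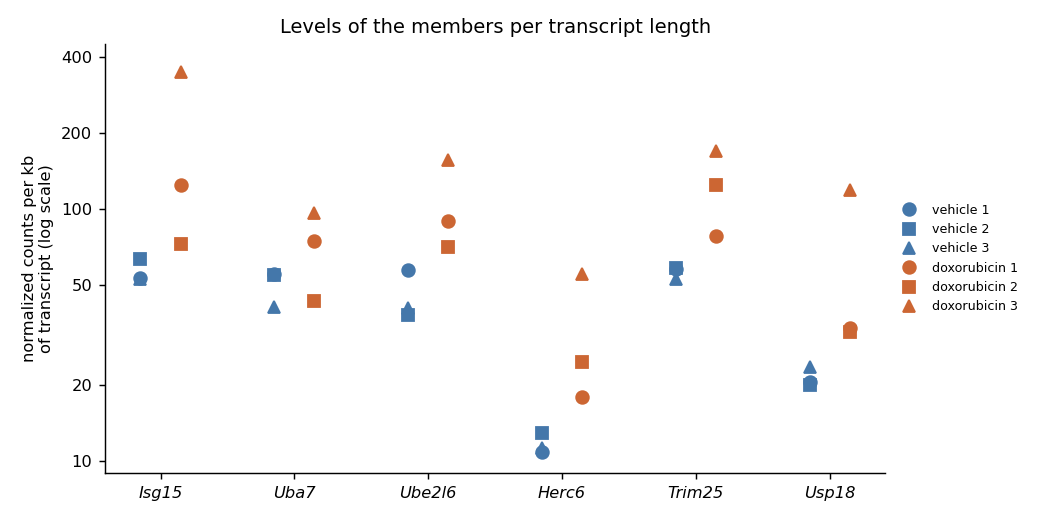
Normalized counts per kilobase of transcript (log axis) of the 6 members in each vehicle (blue) and doxorubicin (orange) library. Isg15, Trim25, Uba7 and Ube2l6 lie together in the vehicle libraries, Usp18 and Herc6 lie lower, and Isg15 reaches 350 in doxorubicin replicate 3.

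The regulators that switch on Isg15 and the partners of Usp18 were examined next, a list of 11 genes of which 10 were tested (Skp2 was too low). None (0) passed the adjusted threshold, 4 had doxorubicin values wholly above the vehicle values (19.2% of all genes tested), and 0 had values wholly below (22.6% of all genes). The list's median log2 fold change was 0.40, against -0.0046 for all genes tested, and was 0.24 without doxorubicin replicate 3. Irf7, the interferon-induced transcription factor that amplifies the response, had the largest difference, 2.06, with 108, 96.1 and 113 in the vehicle libraries and 206, 391 and 1090.1 in the doxorubicin libraries. Its values were ordered across the doxorubicin libraries as those of Herc6 and Trim25 were, with replicate 1 lowest and replicate 3 highest. Irf1 (0.96) and Irf9 (0.94) also had groups that did not overlap.

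Stat2, a transcription factor of the interferon-activated complex, at 201, 198 and 178 in the vehicle libraries, reached 250, 265 and 629 after doxorubicin, a difference of 0.85 (limma adjusted p 0.122). Its groups did not overlap, and doxorubicin replicate 3 was far above the other libraries, without which the difference was 0.42. The receptor chains Ifnar1 (0.43) and Ifnar2 (0.34), the latter the docking site of Usp18, the kinases Tyk2 (0.34) and Jak1 (-0.11), and Irf3 (0.27) all had overlapping groups.

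Among 24 proteins reported as ISG15 targets, 9 transcripts were wholly higher and 4 wholly lower after doxorubicin, against 19.2% and 22.6% of all genes tested, and 0 passed the adjusted threshold. The median was 0.30, and 0.14 without doxorubicin replicate 3. The largest difference was that of Ifit1, an interferon-induced RNA-binding protein, at 46.1, 57.9 and 68.5 in the vehicle libraries and 115, 140 and 457 in the doxorubicin libraries (1.76, and 1.14 without doxorubicin replicate 3). Mx1, on the same list, had a difference of 1.32 that rested on doxorubicin replicate 3 and was -0.40 without it. The chaperone Hsph1 differed by -0.49 with overlapping groups. Several members of this list are themselves interferon-induced.

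The extracellular form of ISG15 binds the leukocyte integrin LFA-1. Its beta chain Itgb2 stood at 67.5, 40.5 and 50.1 in the vehicle libraries and at 76.9, 177 and 557 in the doxorubicin libraries, a difference of 1.91 (limma adjusted p 0.0897) without overlap, and 1.16 without doxorubicin replicate 3. The alpha chain Itgal was below 30 in 5 of the 6 libraries and 271 in doxorubicin replicate 3, so that its difference of 1.04 rested on that library and was -0.42 without it. With the kinase Lyn (0.49), the list's 3 genes had a median of 1.04, which was 0.22 without doxorubicin replicate 3 and 1.99 without replicate 2, and 1 was wholly higher (19.2% of all genes).

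Other enzymes of the same kinds had mostly negative differences. Of 7 tested deconjugases (of 8 listed) that are related to Usp18 or accept ISG15, 5 had doxorubicin values wholly below the vehicle values and 0 wholly above, against 22.6% and 19.2% of all genes, with a median of -0.49. Usp2 went from 723, 862 and 767 to 439, 560 and 461 (-0.69), and Usp13 differed by -0.96, while Usp21 differed by 0.05 with overlap. Of the 7 other ligases and conjugating enzymes linked to ISG15 or related to Herc6, 1 was wholly higher (Ube2e2, 0.33) and 3 wholly lower, including Herc3 (-0.85) and Ube2e1 (-0.30), and Herc1 (0.39) overlapped. Their median was -0.13, and -0.05 without vehicle replicate 3.

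The parallel relays for ubiquitin, NEDD8, SUMO and UFM1 were also examined. Of 15 activating, conjugating and ligating enzymes, 0 were wholly higher and 8 wholly lower after doxorubicin, with a median of -0.28. These counts too stand against 19.2% and 22.6% of all genes. The NEDD8 conjugating enzymes Ube2m (-0.76) and Ube2f (-0.62) had the lowest values, both without overlap. Among 12 tested modifiers related to ISG15, 0 were wholly higher and 1 was wholly lower (Sumo2, -0.22), and the median was -0.04, within -0.09 to -0.01 when 1 library was left out. Ubb (0.38) and Fau (0.36) had overlapping groups. Ubd, the other interferon-inducible modifier, was too low to test, listed at 0 in 4 libraries and at 2.4 or less in the others. Scaling every library to the same total moved the median of all genes to 0.29 and, with it, the medians of the parallel relays to 0.019, of the modifiers to 0.26, of the other ligases to 0.17 and of the other deconjugases to -0.19. Subtracting that shift returns about the deposited medians by construction, at -0.28, -0.04, -0.12 and -0.48, with the members at 1.19. The scaling also moved the medians of the reported targets to 0.60, of the regulators to 0.70 and of the relatives of Trim25 described next to 0.46. The same scaling changed the share of wholly higher genes from 19.2% to 36.7% and that of wholly lower genes from 22.6% to 10.1%.

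Trim25 was set against 18 relatives, 17 of its TRIM family and the RIG-I ligase Rnf135. Of these 5 were wholly higher and 4 wholly lower, against 19.2% and 22.6% of all genes, and 0 passed the adjusted threshold. The median was 0.16, and 0.10 without either vehicle replicate 2 or doxorubicin replicate 3. Trim14, an adaptor of antiviral signalling, went from 25.3, 31.5 and 32.1 to 51.8, 54.5 and 112 (1.18), and Trim47 differed by 0.94. The most negative difference was that of Trim55, a ligase of the sarcomere, which went from 436, 379 and 506 to 375, 108 and 112 (-1.39), and the membrane repair factor Trim72 differed by -1.09. All 10 cardiomyocyte markers also had negative differences, with a median of -1.50, and their part in these values was not tested.

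**Figure D4:**
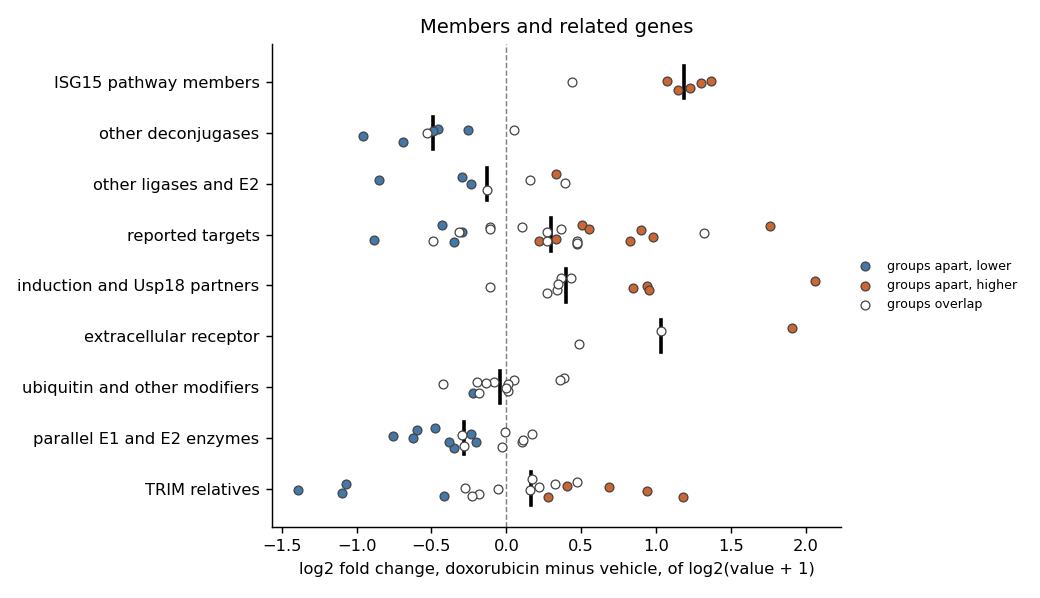
Log2 fold changes of the tested genes in the list of members and in 8 lists of related genes, with filled points where the groups do not overlap, a black bar at each list's median and a dashed line at the median of all genes tested. The members lie between 0.44 and 1.37, and the parallel enzymes and other deconjugases lie mostly below 0.

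For each member the genes with the most similar profile were sought among 10005 others with a mean of at least 50, by the root mean square difference over the 6 libraries of log2(value + 1) measured from the vehicle mean. Isg15 was nearest to Nckap1l, an actin regulator of blood cells (0.19), then to the antiviral synthetases Oas2 (0.23) and Oas1a (0.23). Usp18 was nearest to Trim30d (0.045), Nckap1l (0.14) and Lcp1, the plastin of leukocytes (0.14). Uba7 was nearest to Slx1b (0.071), the death ligand Tnfsf10 (0.091) and Dll4, a Notch ligand of endothelium (0.11). Ube2l6 was nearest to the interferon-induced Xaf1 (0.14), Sh3d21 (0.15) and the folate receptor Folr2 (0.17). Herc6 was nearest to Mmp28 (0.12), the cathepsin Ctsz (0.13) and the transporter Abcb1a (0.13). Trim25 was nearest to Atl3 (0.053), the RNA-editing enzyme Apobec1 (0.069) and B2m, the light chain of MHC class I (0.072). Each of the 6 members had at least 3 other genes nearer to it than its nearest fellow member, which was 0.25 away for Usp18 and Herc6 and 0.55 away for Uba7. With so many candidates and 6 libraries, likeness of this kind is a description of the profiles.

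The labelled cell type was checked against its markers. The 10 cardiomyocyte markers summed to between 720097 and 877165 normalized counts after vehicle and to 655429, 218005 and 183629 in doxorubicin replicates 1 to 3. The 12 macrophage markers summed to 2671 to 2834 in the vehicle libraries and to 4343, 7107 and 16569 in the doxorubicin libraries, and 10 of the 12 were wholly higher, against 19.2% of all genes. The 6 neutrophil markers summed to 10.5 to 21.7 and to 55.0, 563 and 419. In bulk RNA, fewer cells of a type and less RNA per cell cannot be told apart. All defining markers of these 3 lists were above 0 in at least 1 library, and the 8 lymphocyte and 4 dendritic markers summed to at most 87.1 and 4.82 in any library. Doxorubicin replicate 1 had the highest sums of the 4 atrial markers (1426, against 368 to 692 in the other libraries) and of the 5 erythroid markers (9027, against 250 to 2104), of which Hbb-bs was at 0 throughout. The 7 mural markers summed to 9763 to 14504 after vehicle and 11210 to 13253 after doxorubicin.

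The summed members, at 717, 705 and 625 in the vehicle libraries, were 1054, 1173 and 2239.5 in doxorubicin replicates 1 to 3. Trim25 set their order over the doxorubicin libraries: without it the other 5 summed to 618, 478 and 1288, with replicate 2 lowest. Isg15, Usp18, Uba7 and Ube2l6 were each lowest in replicate 2, as was the endothelial sum, whereas Herc6 and Trim25 were lowest in replicate 1, as was the macrophage sum. Single markers departed from both sums. Pecam1, Tek and Vwf of the endothelial list were lowest in replicate 1, and Fcgr1, Cx3cr1 and Ptprc of the macrophage list in replicate 2. The neutrophil sum was highest in replicate 2. Relative to the vehicle mean the members were at 1.55, 1.72 and 3.28 times and the macrophage markers at 1.57, 2.57 and 5.99 times. The 8 endothelial markers were at 1.41, 1.32 and 1.70 times and the 8 fibroblast markers at 1.23, 3.26 and 2.34 times. The fibroblast sum was carried by Dcn, without which the other 7 were at 1.29, 1.10 and 1.18 times. The part that these cells have in the members' values was not tested.

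**Figure D5:**
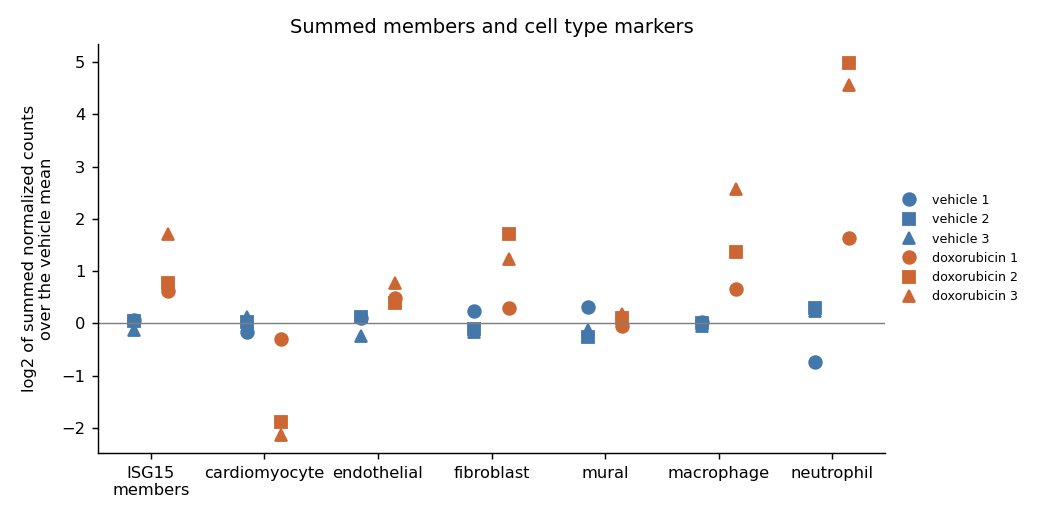
Log2 of summed normalized counts over the vehicle mean, for the 6 members and for markers of cardiomyocytes and 5 other cell types, in each vehicle (blue) and doxorubicin (orange) library. On the deposited scaling, summed cardiomyocyte markers are lower and summed macrophage and neutrophil markers higher in all 3 doxorubicin libraries. The summed members are also higher in them, and the cardiomyocyte sum of doxorubicin replicate 1 is near the vehicle sums.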

How the data were processed

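RNA of 3 vehicle and 3 doxorubicin libraries was grouped by sample title. Per the labels, reads were aligned with STAR to mm10 with RefSeq genes in BaseSpace; the submitters' processing notes name STAR 2.6.1a and Salmon. The authors deposited a signal of normalized read counts, with a gene per row and a library per column. How it was normalized or filtered, and whether strand was used, is not given in the sources used here. Depth was estimated by taking the most common low value as 1 read; 80.0% to 92.5% of low values lay within 0.1 step of a whole multiple, too few for tests on counts. Poisson intervals cover counting error only.

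Values were tested as log2(value + 1) with limma 3.58.1 (R 4.3.3), with a mean-dependent prior, in 12477 genes with a mean of at least 10, two-sided, with Benjamini-Hochberg adjustment over all of them and a threshold of 0.05. Fold changes are doxorubicin minus vehicle on that scale, which understates low genes. Promoters, coordinates and lengths came from RefSeq GRCm38.p6 and GENCODE M21. The script was tested on simulated data in which both groups had the vehicle spread. Every member had a wider log2 spread after doxorubicin (Isg15, SD 1.14 against 0.14), which that simulation does not cover. Nothing states that replicates pair across groups. The members and lists were chosen with earlier results of these data known. Named genes are the members, all tested regulators of Isg15, the 2 highest and 2 lowest of each other list, the 3 nearest genes of each member, Mx1, Xist and Ddx3y; some genes that this rule names are not reported here. Alternatives covered pseudocount, filter, scaling, moderation, weights, covariates and single libraries.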

Additional observations from a re-analysis of the deposited data

How the results depend on the processing

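All 102 member values under 17 other settings stayed positive, and 94 kept their side of the threshold. Any gene was called higher only with library weights and without doxorubicin replicate 1, with 4 members past the threshold in each. In every other setting 0 genes were called higher, so no member could pass it. Changing the filter or the moderation, or adding the replicate block, cannot alter a fold change here, so those signs were fixed in advance. For the 5 members without overlap, leaving out or weighting libraries or changing the pseudocount could not reverse a sign either. Library weights, in which doxorubicin replicate 1 had a weight of 0.277, called 1954 genes higher and 2318 lower and put 4 members past 0.05, namely Usp18 at 1.06, Ube2l6 at 1.04, Herc6 at 1.22 and Trim25 at 1.13. Leaving out 1 library at a time gave 0 to 2409 genes higher and 0 to 2718 lower. It gave log2 fold changes of 0.74 to 1.86 for Isg15, 0.62 to 1.55 for Usp18, 0.19 to 0.77 for Uba7, 0.83 to 1.39 for Ube2l6, 0.84 to 1.64 for Herc6 and 0.81 to 1.37 for Trim25. The highest counts came without doxorubicin replicate 1, the only one of these fits with members past the threshold. The number of members with groups that do not overlap was 5 to 6, the latter without doxorubicin replicate 2. Leaving out a library cannot lower this number, so that it did not fall was fixed in advance. Leaving out a library also raised the share of all genes wholly higher, from 19.2% to between 20.5% and 31.6%. That share was 23.9% without doxorubicin replicate 2. Comparison within library classes and the count of members without overlap were chosen after seeing the data. Uba7 reversed to -0.35 among libraries with Ddx3y. With library class as a covariate, the members ran from 0.35 (Uba7) to 1.25 (Herc6), with Isg15 at 1.14, and 0 genes were called. Equal totals moved the median of all genes to 0.29 and with it reversed the medians of the other ligases to 0.17, the modifiers to 0.26 and the parallel enzymes to 0.019. With the replicate block, the number as a block, Isg15 stayed at 1.37 by construction (limma adjusted p 0.127) and 0 genes were called. Deviations of same-numbered libraries correlated at -0.13, 0.03 and -0.09, so the numbers were not taken to pair the animals. Depth limits Isg15 and Usp18 most, at about 46 and 48 reads in doxorubicin replicate 2.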
